A study of Mus musculus with 2 samples.

Results

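The genes described here are 10 transcription factors that pattern the segments of the nephron, the tubular filtering unit of the kidney. They were taken from a fixed list and matched by Ensembl identifier to the gene and transcript tables of each library. All 10 were found, of 43346 mouse genes in the tables, 21474 of them protein coding. Lhx1 and Pou3f3 stand for the renal vesicle, Irx1, Irx2, Irx3 and Irx5 for the loop of Henle, and Tfap2a and Tfap2b for the distal tubule. Sim1 and Mecom were kept apart, because their segment roles are best known from zebrafish. That rule was not applied to Tfap2a, whose distal role given below is also from zebrafish.

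The material was whole kidney of healthy B6NCrl mouse embryos at 16.5 days of development, with no treatment. Total RNA was sequenced in 2 libraries, biological replicates 2 and 1, each made from 10 ng of RNA over 200 nt and each a pool of male and female embryos. The pool of replicate 2 came from 41 embryos, while the labels used here state no number for replicate 1. With 1 group and no second condition, no test between conditions was possible, so levels are given per library and as mean ± SD (n = 2). Ratios between the libraries are replicate 2 over replicate 1 and describe the spread between the pools.

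A nephron begins as a renal vesicle, a small epithelial ball that forms beside the tip of the ureteric bud, and passes through the comma- and S-shaped body before it elongates. Transcription factors expressed in bands along that early tubule divide it into proximal tubule, loop of Henle and distal tubule. LIM-homeodomain and POU factors act in the vesicle, Iroquois homeodomain factors mark the middle of the S-shaped body, and AP-2 factors mark its distal part. In a bulk sample, fewer cells of a type and less RNA per cell cannot be told apart. Nor can the cell type that gave a gene's reads be told, so the level of a factor may include cells outside the nephron.

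Expected counts, which divide reads that several entries share, summed to 37900132 on mouse genes in replicate 2 and 34261328 in replicate 1. Levels are in TPM, which are scaled to length and to library. For a 2 kb message, 10 counts were worth 0.201 TPM in replicate 2 and 0.218 TPM in replicate 1. Markers of the labelled tissue were present. All 20 genes of early nephron signalling, 11 of 12 loop genes, 12 of 14 distal tubule genes, 8 of 8 proximal tubule genes and 8 of 8 ureteric genes reached 1 TPM in both libraries. Genes of neighbouring tissues were present too, with 5 of 5 for the adrenal cortex, 6 of 6 for neurons, 3 of 4 for skeletal muscle, 3 of 6 for chromaffin and sympathetic cells, 3 of 6 for neural crest and glia and 3 of 5 for urothelium.

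All 10 factors reached 1 TPM in both libraries, a threshold that 34.7% of all mouse genes and 62.2% of protein-coding genes passed. Their median level was 6.03 TPM in replicate 2 and 5.54 TPM in replicate 1, or 5.63 TPM from the means. The median over all protein-coding genes was 5.50 TPM, and over detected ones 20.8 TPM. The highest mean of the set, that of Mecom, was 39.2-fold above the lowest, that of Irx5.

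**Figure D1:**
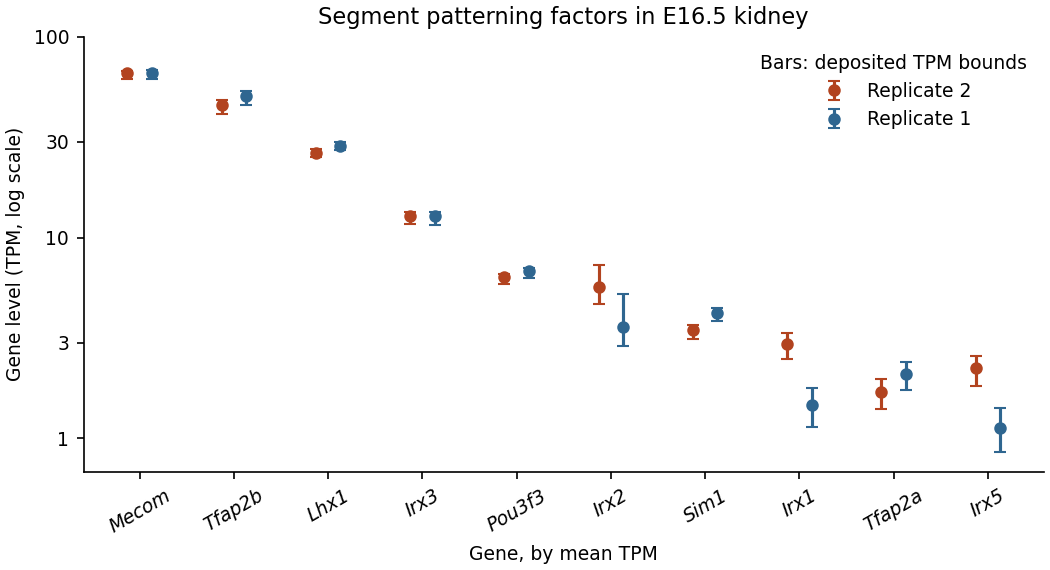
Gene level in TPM on a log scale for the 10 factors, ordered by mean, with replicate 2 left of replicate 1 and bars for the deposited credibility bounds. Mecom, Tfap2b, Lhx1 and Irx3 lie apart from each other, while Irx1, Irx5 and Sim1 have bounds that do not overlap between the libraries.

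Among the renal vesicle factors, Lhx1 led. Lhx1 encodes a LIM-homeodomain protein that the mouse needs to pattern the renal vesicle and to grow the ureteric bud. Its level was 26.2 TPM in replicate 2 (deposited bounds 25.1 to 27.6, 2450 counts) and 28.7 TPM in replicate 1 (27.2 to 30.04, 2408 counts). The libraries therefore sat close together around 27.5 ± 1.75 TPM, above 73.7% of protein-coding genes. Lhx1 lies on the minus strand at chr11:84518284-84525535 (GRCm38), and the transcript Lhx1-201 took 100% of its TPM in replicate 2 and 96.6% in replicate 1.

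Pou3f3, also called Brn1, encodes a POU-domain factor that mouse nephrons need to form the loop of Henle and the distal tubule. It stood at 6.40 TPM in replicate 2 (5.91 to 6.62, 1166 counts) and 6.84 TPM in replicate 1 (6.29 to 7.06, 1148 counts), with a mean of 6.62 ± 0.311 TPM. The gene occupies chr1:42695768-42703176 on the plus strand and has 1 transcript in the tables. The level of Lhx1 was 4.10 times that of Pou3f3 in replicate 2 and 4.196 times in replicate 1, so the ratio of these levels was nearly the same in both pools.

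The loop factors belong to the Iroquois family, whose genes lie in clusters. In Xenopus, Irx1 and Irx3 are needed for the intermediate tubule of the pronephros. Irx3 was the highest of the 4 here, with 12.8 TPM in replicate 2 (11.7 to 13.4, 797.92 counts) and 12.7 TPM in replicate 1 (11.6 to 13.4, 730.95 counts). Its mean of 12.8 ± 0.0495 TPM lay above 61.0% of protein-coding genes, at chr8:91798525-91802067 on the minus strand. Irx5, the cluster neighbour whose start lies 555.6 kb away at chr8:92357625-92376286 on the plus strand, was the lowest of all 10. It had 2.23 TPM in replicate 2 (1.82 to 2.58, 128 counts) and 1.13 TPM in replicate 1 (0.852 to 1.41, 60 counts). The level of Irx3 was thus 5.74 times that of Irx5 in replicate 2 and 11.3 times in replicate 1.

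In the other cluster, Irx2 exceeded Irx1 in both pools. Irx2, at chr13:72628820-72634198 on the plus strand, reached 5.66 TPM in replicate 2 (4.67 to 7.30, 228 counts) and 3.6 TPM in replicate 1 (2.87 to 5.22, 121 counts). Irx1, whose start lies 665.1 kb away at chr13:71957921-71963723 on the minus strand, had 2.96 TPM in replicate 2 (2.49 to 3.36, 168 counts) and 1.47 TPM in replicate 1 (1.15 to 1.79, 77 counts). The ratio of the Irx2 level to the Irx1 level was 1.91 in replicate 2 and 2.45 in replicate 1. With counts set over the longest transcript, Irx2 fell to 3.62 TPM in replicate 2 and 2.09 TPM in replicate 1. Irx1, with a single transcript, stayed at 2.96 TPM and 1.47 TPM, so Irx2 was then closer to it. By deposited TPM, Irx3 exceeded Irx2 by 2.26 times in replicate 2 and 3.54 times in replicate 1, so the order Irx3, Irx2, Irx1, Irx5 was the same in both libraries.

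The distal factors differed widely in level. Tfap2b encodes AP-2beta, which mouse kidneys need for distal tubule differentiation. It stood at 45.6 TPM in replicate 2 (41.2 to 48.5, 1680 counts) and 50.7 TPM in replicate 1 (45.7 to 53.8, 1754 counts), a mean of 48.1 ± 3.58 TPM that was above 83.1% of protein-coding genes. Tfap2a encodes AP-2alpha, a factor of neural crest and surface ectoderm that acts with tfap2b in the distal pronephros of zebrafish. Tfap2a had 1.71 TPM in replicate 2 (1.398 to 1.99, 126.27 counts) and 2.09 TPM in replicate 1 (1.74 to 2.41, 143.06 counts). The deposited level of Tfap2b was 26.7 times that of Tfap2a in replicate 2 and 24.2 times in replicate 1. Over coding transcripts alone that ratio was 13.0 in replicate 2 and 11.5 in replicate 1, and with counts set over the longest transcript it was 6.90 and 6.36. Tfap2b lies at chr1:19208914-19238576 on the plus strand and Tfap2a at chr13:40715302-40738376 on the minus strand.

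Mecom encodes the zinc-finger protein EVI1 and a longer MDS1-EVI1 form, and in zebrafish it acts in the distal pronephros. Its level was the highest of the set, with 65.7 TPM in replicate 2 (61.4 to 67.7, 5682 counts) and 65.9 TPM in replicate 1 (61.6 to 68.6, 5115 counts). The mean of 65.8 ± 0.141 TPM exceeded that of 87.6% of protein-coding genes. Mecom spans chr3:29951296-30548008 on the minus strand. Sim1 encodes a bHLH-PAS factor known in mice for hypothalamic neurons and in zebrafish, as sim1a, for the proximal straight tubule. It stood at 3.48 TPM in replicate 2 (3.15 to 3.67, 630 counts) and 4.23 TPM in replicate 1 (3.83 to 4.44, 705 counts), with a mean of 3.86 ± 0.530 TPM, at chr10:50894754-50989152 on the plus strand.

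In order of mean TPM the factors ran Mecom, Tfap2b, Lhx1, Irx3, Pou3f3, Irx2, Sim1, Irx1, Tfap2a and Irx5. Of the 9 pairs of neighbours in that order, 6 had both library values of the higher gene above both of the lower. In 4 of these, which are the first 4 steps down to Pou3f3, the deposited bounds were apart too. These steps were 1.37-fold from Mecom to Tfap2b, 1.75-fold from Tfap2b to Lhx1, 2.15-fold from Lhx1 to Irx3 and 1.93-fold from Irx3 to Pou3f3. The step from Tfap2b to Lhx1 turned round over coding transcripts alone, at 23.1 TPM for Tfap2b and 27.4 TPM for Lhx1, and over the longest transcript, at 12.5 TPM and 27.1 TPM, where Irx3, at 12.7 TPM, was above Tfap2b as well. Irx2 and Sim1, Irx1 and Tfap2a, and Tfap2a and Irx5 did not differ beyond their spread.

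By segment role, the loop factors had the lowest median, although Irx3 (12.8 TPM) stood above Pou3f3 (6.62 TPM) and Tfap2a (1.90 TPM). The loop median was 4.31 TPM in replicate 2 and 2.54 TPM in replicate 1 (n = 4 genes), against 16.3 TPM in replicate 2 and 17.8 TPM in replicate 1 for the renal vesicle factors (n = 2 genes). On the scale of mean log2(TPM + 0.1), the loop minus renal vesicle difference was -1.45 in replicate 2 and -2.19 in replicate 1. The distal factors had a median of 23.7 TPM in replicate 2 and 26.4 TPM in replicate 1 (n = 2 genes), and their difference from the loop factors was 0.92 in replicate 2 and 1.77 in replicate 1. Distal minus renal vesicle came to -0.52 in replicate 2 and -0.42 in replicate 1, although the distal sum was higher, at 47.3 TPM against 32.6 TPM in replicate 2. The distal values rest on Tfap2b, since Tfap2a was near the bottom of the order. Genes of a role are not replicates, so no test was made. Counting Pou3f3 with the loop made the loop minus renal vesicle difference of the means -2.64, against -1.77 as assigned, and adding Mecom to the distal factors raised distal minus loop to 2.22, against 1.30. With counts set over the longest transcript, distal minus loop was 0.50. The SD between the libraries, taken from the deposited TPM and not from this measure, was 0.598.

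**Figure D2:**
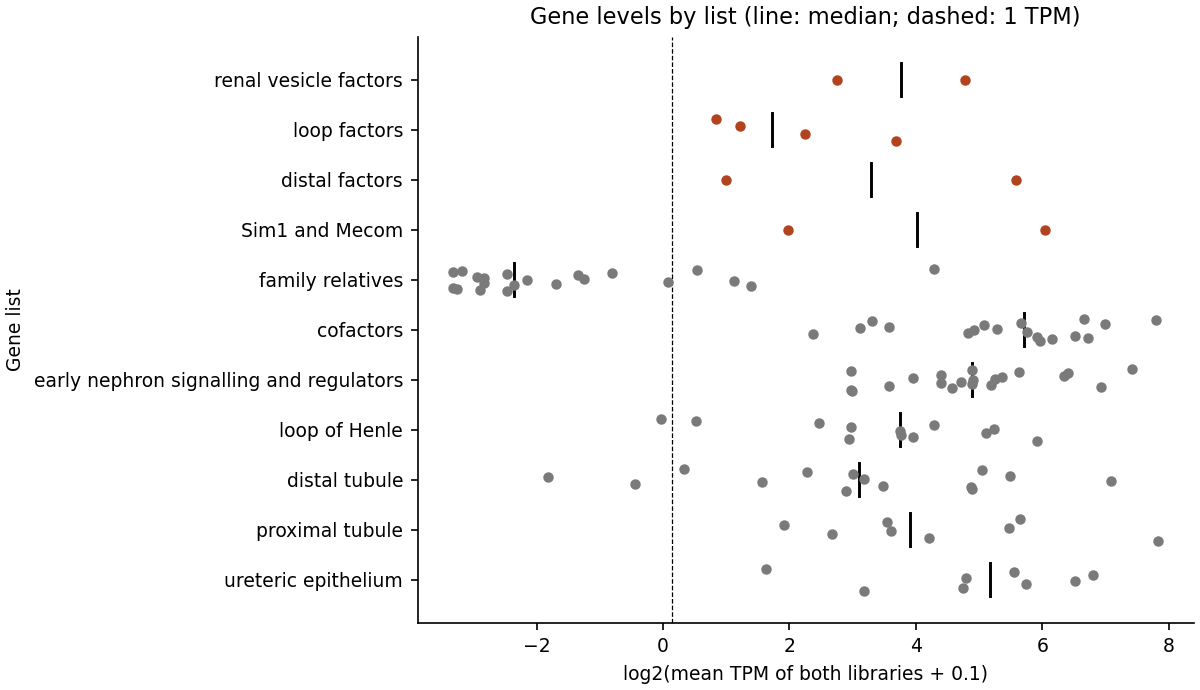
Mean gene level of both libraries as log2(TPM + 0.1), 1 point per gene, for the segment patterning factors by role (red) and for relatives, cofactors and segment genes (grey), with a line at each median and a dashed line at 1 TPM. Most relatives lie left of the dashed line, while all 18 cofactors lie right of it.

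Genes of the segments that the factors pattern were measured alongside them. The 12 loop genes had a median of 13.4 TPM, led by the sodium-potassium-chloride cotransporter Slc12a1 with 63.3 TPM in replicate 2 and 57.7 TPM in replicate 1. The claudin Cldn10 stood at 37.5 ± 5.30 TPM. The lowest was the calcium-sensing receptor Casr, at 0.880 ± 0.240 TPM. The 14 distal genes had a median of 8.45 TPM, with the calcium-binding protein Calb1 at 135 ± 5.64 TPM, Tmem52b at 45.0 ± 1.67 TPM and the cortisol-inactivating enzyme Hsd11b2 at 32.8 ± 0.255 TPM. Parvalbumin, Pvalb, was the lowest, with 0.370 TPM in replicate 2 and no count in replicate 1, where 3 counts would be 0.151 TPM. Calb1 and Hsd11b2 are also expressed in the collecting duct.

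The early nephron genes had a median of 29.5 TPM. The cyclin Ccnd1 (171 ± 25.0 TPM), the paired-box factor Pax8 (122 ± 13.2 TPM) and the zinc-finger factor Osr2 (85.0 ± 3.01 TPM) were the highest, and the signalling gene Wnt4 was the lowest at 7.74 ± 1.51 TPM. The proximal genes were led by the phosphate transporter Slc34a1 (229 ± 15.9 TPM), the water channel Aqp1 (50.2 ± 12.1 TPM) and the organic anion transporter Slc22a6 (44.5 ± 6.98 TPM), with Slc13a3 the lowest at 3.66 ± 0.212 TPM. The ureteric genes were led by the water channel Aqp2 (112 ± 31.1 TPM), the factor Gata3 (91.2 ± 6.95 TPM) and Hoxb7 (53.6 ± 3.37 TPM), with Elf5 the lowest at 2.995 ± 0.530 TPM.

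Most relatives of the 10 factors were lower than any of them. Of 21 other genes of the LIM-homeodomain, POU3, Iroquois, AP-2, Sim and PRDM3/16 families, 4 were detected and the median was 0.095 TPM. Prdm16, the closest relative of Mecom, was the highest relative, with 18.6 TPM in replicate 2 and 20.1 TPM in replicate 1. Lhx6 (2.52 ± 0.170 TPM), Isl1 (2.09 ± 0.509 TPM) and Sim2 (1.35 ± 0.311 TPM) were the others. Lmx1b, the podocyte LIM-homeodomain factor, missed the threshold with 0.820 TPM in replicate 2 and 1.10 TPM in replicate 1. In the Iroquois family Irx4 stood at 0.295 ± 0.0636 TPM and Irx6 at 0.0800 ± 0.0566 TPM, both under 1 TPM, unlike the 4 on the list. Tfap2c had 0.470 ± 0.0424 TPM and Tfap2e 0.01 ± 0.0141 TPM, Pou3f1 0.320 ± 0.0141 TPM, Pou3f2 0.0400 ± 0.0283 TPM and Pou3f4 0.0300 ± 0.0283 TPM. Lhx9 (0.210 TPM), Isl2 (0.125 TPM), Lhx8 (0.095 TPM), Lhx2 (0.0800 TPM), Lmx1a (0.0400 TPM), Lhx3 (0.0350 TPM) and Lhx4 (0.0050 TPM) were the other LIM-homeodomain relatives with counts. Lhx5 and Tfap2d had no count in either library, where 3 counts would be 0.0478 TPM for Lhx5 and 0.104 TPM for Tfap2d in replicate 2.

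The known protein partners of the factors were detected in 18 of 18 cases, with a median of 52.1 TPM, which lay above the mean level of every factor except Mecom. LIM-homeodomain factors such as Lhx1 work through the LDB adaptors: Ldb2 stood at 70.8 ± 0.445 TPM and Ldb1 at 75.5 TPM in replicate 2 and 48.4 TPM in replicate 1. The SSBP proteins that bind LDB had means of 105 TPM (Ssbp2), 91.7 TPM (Ssbp4) and 60.5 TPM (Ssbp3). The LIM-only proteins, which bind the same adaptors, ran 53.9 TPM (Lmo4), 28.2 TPM (Lmo2) and 5.09 TPM (Lmo1), and the ubiquitin ligase Rlim stood at 30.3 ± 2.23 TPM. For Sim1, the dimer partners Arnt and Arnt2 had 38.8 ± 0.332 TPM and 8.56 ± 0.170 TPM. For the AP-2 factors, the coactivators Cited1, Cited2 and Cited4 had 127 ± 10.2 TPM, 50.3 ± 1.67 TPM and 9.81 ± 1.34 TPM, and the repressors Kctd15 and Kctd1 had 33.6 ± 1.09 TPM and 11.8 ± 0.594 TPM. Cited1 is also a marker of nephron progenitors. The corepressors Ctbp1 and Ctbp2, which bind EVI1, stood at 221 ± 21.9 TPM and 101 ± 3.32 TPM.

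Between the pools, 3 of the 4 loop factors were higher in replicate 2. Irx1 had 168 counts in replicate 2 and 77 in replicate 1, a log2 ratio of 0.99 after TMM scaling of library sizes (95% counting interval 0.61 to 1.42). Irx5 had 128 and 60 counts in replicates 2 and 1, a log2 ratio of 0.95 (0.52 to 1.44), and Irx2 had 228 and 121, a log2 ratio of 0.79 (0.47 to 1.13). The intervals cover counting error only. Irx3 had nearly the same scaled counts in both pools, with a log2 ratio of 0.01 (-0.14 to 0.15). These 3 genes were the only factors past 1.5-fold higher, which 2.06% of 15362 genes whose CPM, counts scaled to library size, averaged 1 or more were, and 4.98% of the 4477 genes between 1 and 10 CPM, the range that holds Irx1, Irx2, Irx5 and Tfap2a.

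No factor was past 1.5-fold lower in replicate 2, against 3.76% of the same 15362 genes. Mecom had a log2 ratio of 0.03 (-0.02 to 0.09), Lhx1 of -0.09 (-0.18 to -0.01) and Pou3f3 of -0.10 (-0.22 to 0.02). Tfap2b had -0.18 (-0.28 to -0.08), Sim1 -0.28 (-0.44 to -0.12) and Tfap2a -0.30 (-0.66 to 0.05). The deposited TPM bounds did not overlap between the libraries for 3 of 10 factors, Irx1 and Irx5 higher and Sim1 lower in replicate 2, against 21.5% of those genes. Scaling to the spike-in total moved the median log2 ratio of the 15362 genes to 0.43, against 0.01 with TMM. Under that scaling the signs of Lhx1, Pou3f3, Tfap2a, Tfap2b and Sim1 became positive, at 0.33, 0.33, 0.12, 0.24 and 0.14, which is below that median, while Irx1 stood at 1.403, Irx5 at 1.36 and Irx2 at 1.20.

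**Figure D3:**
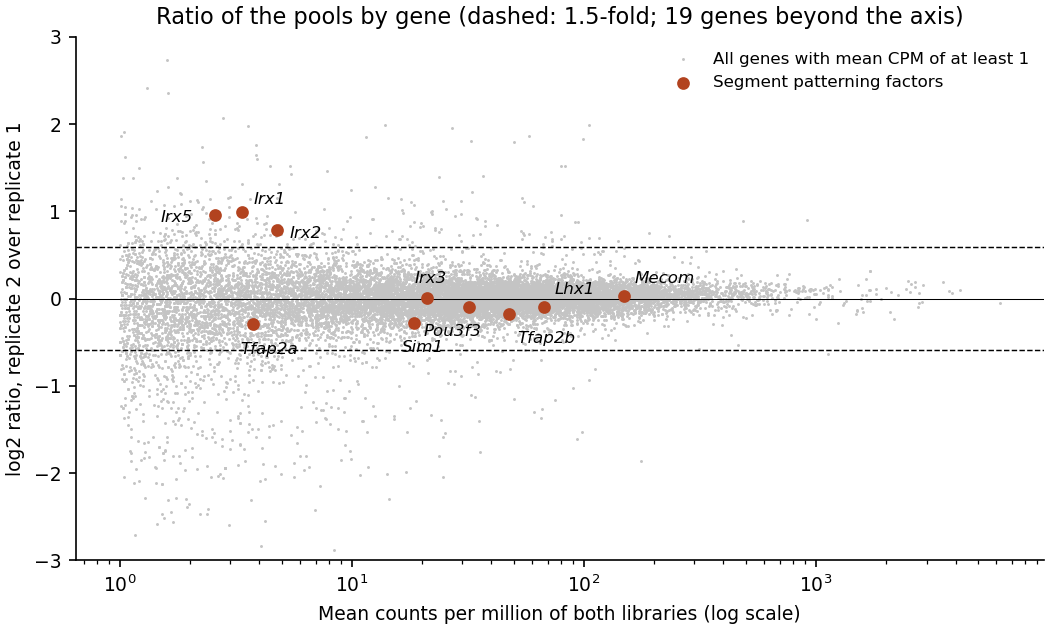
Log2 ratio of replicate 2 over replicate 1 against mean CPM of both libraries on a log scale, for 15362 genes (grey) and the 10 factors (red), with dashed lines at 1.5-fold and 19 genes beyond the axis. Irx1, Irx2 and Irx5 lie above the upper dashed line, and the other 7 factors lie between the lines.

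Genes of other tissues also moved between the pools. Adrenal cortex genes summed to 128 TPM in replicate 2 and 81.0 TPM in replicate 1, with 4 of 5 past 1.5-fold higher and a median log2 ratio of 0.83. Chromaffin and sympathetic genes summed to 13.4 TPM in replicate 2 and 30.02 TPM in replicate 1, with 3 of 3 genes of at least 1 CPM past 1.5-fold lower, and neuronal genes to 30.5 TPM and 50.1 TPM in replicates 2 and 1, with 3 of 6 lower. Skeletal muscle genes summed to 163 TPM in replicate 2 and 73.3 TPM in replicate 1, with 1 of 3 past 1.5-fold higher (Acta1). The change in that sum rests on Acta1, at 139 TPM in replicate 2 and 48.3 TPM in replicate 1. Urothelial genes summed to 85.4 TPM and 65.3 TPM in replicates 2 and 1, with 1 of 3 higher (Upk1b). None of the genes of these lists was at 0 in both libraries, and their part in the Iroquois difference was not tested. By comparison, the loop genes had a median log2 ratio of 0.09 with 0 of 12 past 1.5-fold, the distal genes 0.02 with 1 of 13 (Klk1, higher) and the early nephron genes -0.01 with 0 of 20. Proximal genes had 0.16 with 0 of 8 and ureteric genes 0.04 with 0 of 8. Endothelial genes had 0.03 with 0 of 6, cartilage genes 0.05 with 0 of 2 and megakaryocyte genes -0.02 with 0 of 2. Neural crest genes, where Tfap2a is also used, summed to 18.4 TPM in replicate 2 and 22.6 TPM in replicate 1, with 1 of 3 lower (Fabp7). Among the cofactors 1 of 18 was past 1.5-fold, Ldb1, with a log2 ratio of 0.68.

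The transcript tables held 39 transcripts of the 10 factors, of which 21 took at least 5% of their gene's TPM on average. Pou3f3, Irx1, Irx5 and Sim1 had a single transcript. In the 6 genes with several, the transcript with the highest share of TPM was the same in both libraries in all 6. It differed in only 8.48% of 10194 detected mouse genes with several transcripts, so this does not set the factors apart. By reads, the leading transcript of Mecom differed between the libraries. Irx3-202 took 97.0% of Irx3 in replicate 2 and 98.5% in replicate 1. Tfap2a-201 took 89.5% of Tfap2a in replicate 2 and 97.7% in replicate 1, and Tfap2a-202, which starts farther upstream, took the remaining 10.5% and 2.27%. Since Tfap2a had fewer than 150 counts per library, that difference rests on 12.3 counts for Tfap2a-202 in replicate 2 and 3.01 in replicate 1.

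Irx2 was divided mainly among 3 transcripts. The full coding transcript Irx2-201 took 54.8% of the TPM in replicate 2 and 45.1% in replicate 1. Irx2-205, a fragment of 559 nt whose bases all lie in other coding transcripts, took 35.6% and 36.0% in replicates 2 and 1, but 10.1% and 11.3% of the reads. Irx2-202, annotated with a retained intron, took 7.23% in replicate 2 and 18.9% in replicate 1. These shares rest on 8.44 and 12.9 counts, and the deposited TPM bounds of Irx2-202 overlapped between the libraries. The deposited bounds of Irx2-205 were wide, from 0.792 to 3.28 TPM in replicate 2 and from 0.260 to 2.42 TPM in replicate 1.

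In Tfap2b the transcript that led by TPM was not the one that led by reads. Tfap2b-205, annotated as a retained intron and 610 nt long, led with 41.5% of the TPM in replicate 2 and 40.4% in replicate 1, yet took 14.3% and 13.7% of the reads in those libraries. Of its bases, 577 lie in exons of coding transcripts and 33 in the intron. Tfap2b-202, a coding transcript of 1946 nt, led by reads with 44.8% in replicate 2 and 40.6% in replicate 1, and took 35.8% and 33.2% of the TPM. Tfap2b-201, of 5863 nt, took 24.9% of the reads in replicate 2 and 28.7% in replicate 1, but 6.37% and 7.51% of the TPM. The smaller Tfap2b-203 took 9.90% and 12.2% of the TPM in replicates 2 and 1, and Tfap2b-204 took 6.44% and 6.70%.

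The level of Tfap2b was lower with other lengths. Over coding transcripts alone it was 22.2 TPM in replicate 2 and 24.0 TPM in replicate 1 (23.1 ± 1.28), and with all counts set over the longest transcript 11.7 TPM and 13.3 TPM (12.5 ± 1.11). Lhx1 changed little under the same treatments, at 27.4 ± 1.64 TPM and 27.1 ± 1.25 TPM, so Lhx1 stood above Tfap2b under both. Mecom kept the first place with 55.7 ± 0.502 TPM and 40.3 ± 0.647 TPM.

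Some short stretches that include bases where the Tfap2b transcripts differ are shown, because the shares compare these transcripts. They are not all that differs, since 3341 of the 5863 bases of Tfap2b-201 lie in other coding transcripts. The coding sequences of Tfap2b-201 and Tfap2b-202 begin in different first coding exons on chromosome 1 (plus strand, GRCm38). These begin at 19209168 with 81 coding bases and at 19212397 with 27 coding bases. The bases printed after the first 81 and the first 27 lie past those exons and begin with the same letters in both. Transcripts that start at the upstream site (Tfap2b-201 and Tfap2b-204) took 37.6% of the reads in replicate 2 and 41.7% in replicate 1, and those that start 3.14 kb downstream (Tfap2b-202 and Tfap2b-205) took 59.1% and 54.3%. The first 90 bases of each coding sequence, from GENCODE M21, have the start codon in capitals, and the last 73 bases of Tfap2b-205 (chr1:19214370-19214442) have the 33 intronic bases in capitals.
Tfap2b-201: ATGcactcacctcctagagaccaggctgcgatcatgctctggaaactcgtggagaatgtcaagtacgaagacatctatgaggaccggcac
Tfap2b-202: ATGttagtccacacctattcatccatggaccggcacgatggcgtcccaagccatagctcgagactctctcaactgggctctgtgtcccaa
Tfap2b-205: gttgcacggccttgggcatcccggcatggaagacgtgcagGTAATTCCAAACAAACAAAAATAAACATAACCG

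**Figure D4:**
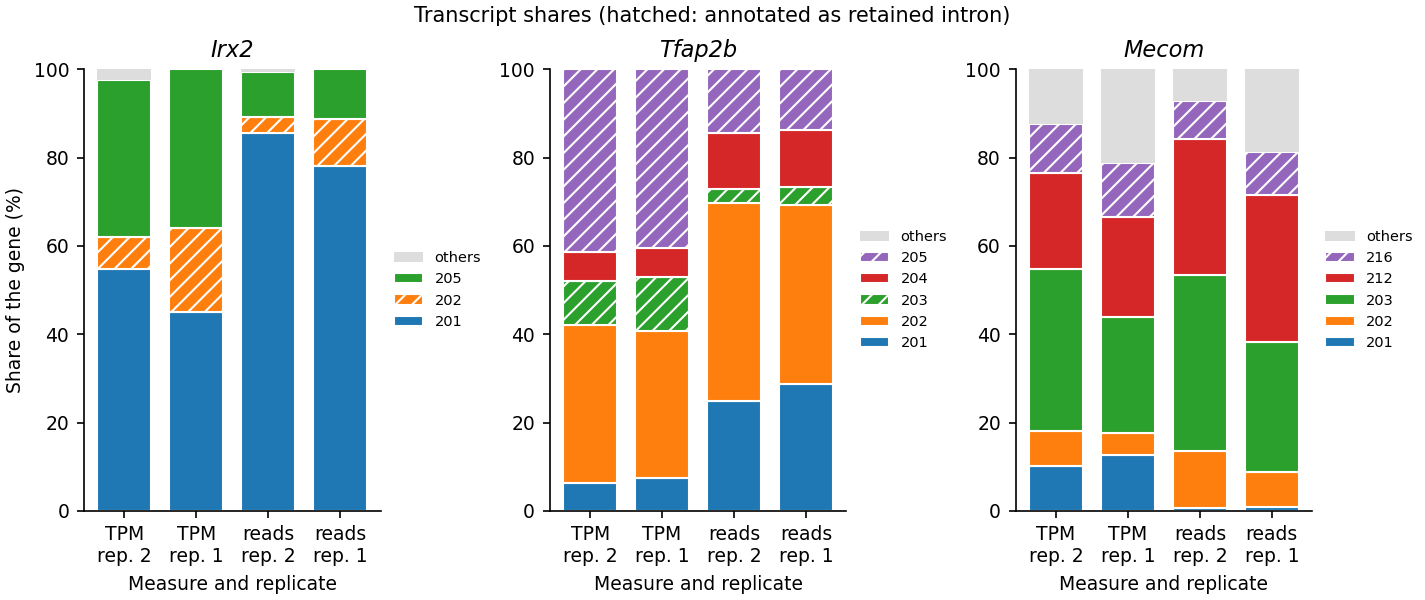
Share of each transcript in its gene for Irx2, Tfap2b and Mecom, as a percent of TPM and a percent of reads, replicate 2 left of replicate 1, with retained-intron transcripts hatched. Tfap2b-205 holds about 41% of the TPM and about 14% of the reads in both libraries, and Mecom-203 is larger in replicate 2 than in replicate 1.

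Mecom had 17 transcripts, whose 5′ ends lie up to 550.3 kb apart. The long MDS1-EVI1 form carries a PR domain that the EVI1 form lacks, and both share the zinc fingers. Mecom-203 led with 36.8% of the TPM in replicate 2 and 26.4% in replicate 1, or 24.2 TPM (20.9 to 25.1) and 17.4 TPM (14.3 to 19.7), with bounds that did not overlap. Mecom-212 took 21.6% and 22.6% in replicates 2 and 1. By reads, Mecom-203 led in replicate 2 with 39.8% against 30.9% for Mecom-212, while Mecom-212 led in replicate 1 with 33.2% against 29.3% for Mecom-203. Mecom-206 was listed at 0 TPM in replicate 2, with an upper bound of 1.95, and at 4.88 TPM in replicate 1 (2.84 to 6.86). Mecom-202 went the other way, at 5.20 TPM in replicate 2 and 3.17 TPM in replicate 1. Other coding transcripts of the gene hold 99.9% of the bases of Mecom-206, 93.9% of Mecom-202, 97.5% of Mecom-203 and 100% of Mecom-212. Whether shared reads were only divided differently in the 2 libraries was not tested. The summed level of the gene did not move with these shifts, since it was 65.7 TPM in replicate 2 and 65.9 TPM in replicate 1.

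A further 3 Mecom transcripts took at least 5% of the TPM on average. Mecom-216, with a retained intron, took 11.1% of the TPM in replicate 2 and 12.2% in replicate 1, and Mecom-202 took 7.92% and 4.81%. Mecom-201, of 348 nt, took 10.1% and 12.7% of the TPM but 0.727% and 0.937% of the reads. Grouped by 5′ end, transcripts that start 38.2 kb below the most upstream end summed to 17.1 TPM in replicate 2 and 19.7 TPM in replicate 1, those 534.5 kb below to 13.4 TPM and 16.1 TPM, and Mecom-203 alone starts 407.6 kb below. The most upstream transcript, Mecom-208, had 0 TPM in replicate 2 and 0.05 TPM in replicate 1. A start group here joins ends within 1 kb of each other.

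**Figure D5:**
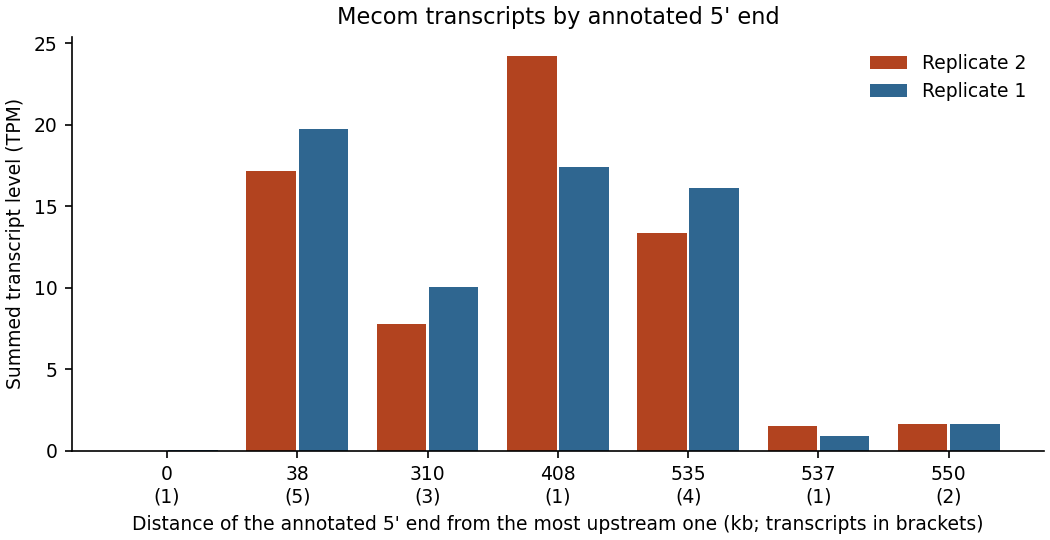
Summed TPM of Mecom transcripts by the distance of their annotated 5′ end from the most upstream one in kb, with the number of transcripts in brackets, replicate 2 left of replicate 1. The group at 408 kb, which is Mecom-203, is higher in replicate 2, and the groups at 38, 310 and 535 kb are higher in replicate 1.

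The annotated coding starts divide the TPM of the gene in another way. Mecom-207 and Mecom-213 begin at the most upstream coding start, at 30509466 on chromosome 3. Together they summed to 2.58 TPM in replicate 2 and 3.98 TPM in replicate 1, or 3.93% and 6.04% of the gene's TPM. By expected counts they held 199.53 of the gene's 5682 in replicate 2 and 283.98 of 5115 in replicate 1. Mecom-212, Mecom-202, Mecom-206 and Mecom-204 share the downstream coding start at 29997694. Their sum was 19.4 TPM in replicate 2 and 23.0 TPM in replicate 1, or 29.5% and 34.8% of the gene's TPM. Their share of expected counts was larger, with 2482.78 of 5682 in replicate 2 and 2586.44 of 5115 in replicate 1. Mecom-203 begins at a coding start of its own, at 30140369, with 231 coding bases before the shared start, of which 189 are among the 570 that Mecom-207 has there. The first 90 coding bases of each (minus strand, GENCODE M21 on GRCm38, start codon in capitals) show 3 different beginnings.
Mecom-207: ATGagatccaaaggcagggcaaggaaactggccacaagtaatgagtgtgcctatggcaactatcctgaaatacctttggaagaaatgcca
Mecom-203: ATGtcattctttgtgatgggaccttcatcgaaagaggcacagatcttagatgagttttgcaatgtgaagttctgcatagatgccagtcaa
Mecom-212: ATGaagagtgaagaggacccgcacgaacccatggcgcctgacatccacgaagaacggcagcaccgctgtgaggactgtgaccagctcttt

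The RefSeq promoter table (GRCm38.p6) holds a promoter for 8 of the 10 factors, 10 in all, each from 250 bases before to 50 after the start. Mecom has a pair, at the upstream start (chr3:30509710-30510009) and at the downstream start (chr3:30013155-30013454), both on the minus strand, and they are shown because transcripts from both were measured. Motifs were searched on both strands in 32851 promoters. The TATA box, TATAAA, occurs in 13.6% of them. The CCAAT box, named by its letters, occurs in 37.4%. The GC box, GGGCGG, occurs in 35.7%. The AP-2 motif, GCCNNNGGC, occurs in 16.6%. The upstream Mecom promoter has 52.0% GC, 19 CpG and 2 GC boxes, and the downstream one has 49.7% GC, 9 CpG and 1 CCAAT box, with matches in capitals. A match is a description of the letters. Over all 10 promoters of the factors GC ran from 46.0% (Sim1) to 69.0% (Irx2), against a median of 52.7% over all promoters. Irx2 was the one factor whose promoter held a match to the AP-2 motif.
Mecom upstream promoter: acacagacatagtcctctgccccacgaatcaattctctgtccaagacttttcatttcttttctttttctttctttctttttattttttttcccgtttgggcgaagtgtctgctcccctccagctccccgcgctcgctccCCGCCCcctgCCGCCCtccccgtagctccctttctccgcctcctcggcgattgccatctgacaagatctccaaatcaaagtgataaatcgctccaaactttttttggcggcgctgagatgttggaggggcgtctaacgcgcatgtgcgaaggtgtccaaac
Mecom downstream promoter: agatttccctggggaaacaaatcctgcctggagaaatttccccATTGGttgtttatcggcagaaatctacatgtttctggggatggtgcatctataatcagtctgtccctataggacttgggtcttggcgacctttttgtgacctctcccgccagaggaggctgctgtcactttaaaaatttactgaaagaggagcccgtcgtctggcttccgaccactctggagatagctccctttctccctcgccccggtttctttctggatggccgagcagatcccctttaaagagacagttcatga

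For 3 of the factors a noncoding neighbour on the opposite strand had a higher TPM than the factor. TPM is scaled to length, and by counts the order was often the reverse. Of 20 annotated genes that overlap a factor or start within 10 kb of it, 16 were in the tables and 6 were detected. The same threshold was passed by 34.7% of all mouse genes, so this count does not set the neighbours apart. Lhx1os, a noncoding gene on the opposite strand whose start lies 125 nt from that of Lhx1, stood at 46.1 TPM in replicate 2 and 48.1 TPM in replicate 1, above Lhx1 itself. By counts Lhx1os was lower, at 520 in replicate 2 and 502 in replicate 1, against 2450 and 2408 for Lhx1. Pantr1, opposite Pou3f3 with its start 926 nt away, had 32.8 TPM in replicate 2 and 35.3 TPM in replicate 1, also above its neighbour. The counts of Pantr1, 353 and 359 in replicates 2 and 1, were below the 1166 and 1148 of Pou3f3. Crnde, opposite Irx5 with its start 1505 nt away, had 6.32 TPM in replicate 2 and 4.76 TPM in replicate 1, above Irx5 in both. The counts of Crnde were 103 and 75 in replicates 2 and 1, against 128 and 60 for Irx5. The protein-coding neighbour of Lhx1, Aatf, had 50.7 TPM and 51.4 TPM in replicates 2 and 1.

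Within Mecom lie 2 detected entries that the annotation lists without a settled type, Gm37024 with 7.93 TPM in replicate 2 and 11.9 TPM in replicate 1 and Gm38197 with 1.53 TPM and 2.93 TPM. Gm38066 (0.595 TPM), Gm10258 (0.265 TPM), Gm37652 (0.210 TPM) and Gm38362 (0.115 TPM) also overlap it and were below 1 TPM. The antisense genes were low: Gm26688 at Tfap2a had 0.810 TPM in replicate 2 and 1.15 TPM in replicate 1, Mecomos 0.520 TPM and 0.610 TPM, and Irx3os 0.610 TPM and 0.390 TPM. Gm20554 beside Irx2 had 0.365 ± 0.0212 TPM, AC122898.1 over Pou3f3 0.225 ± 0.134 TPM, and Gm28340 beside Tfap2b no count. No source used here gives the strandedness of the libraries, so reads of overlapping genes on opposite strands may not have been told apart, and the values of Gm37024, Gm26688, Mecomos and Irx3os and of the factors they overlap are uncertain to that extent.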

How the data were processed

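Total RNA of embryonic kidney was measured in 2 libraries of 1 group, which the labels call biological replicates of the same strain. Per the labels, a mirVana kit was used for RNA over 200 nt, with spike-ins. The deposited text notes name assembly mm10 with annotation M4. Aligner, quantifier and strandedness: not given in the sources used here. The authors deposited expected counts per gene and transcript, which are estimated counts that need not be whole. The authors' TPM values, and their posterior mean TPM, are per length and sum to an equal total in each library, spike-ins included. The deposited FPKM values are scaled to length and library size. The deposited bounds of TPM, listed as a signal, have no stated credibility level. The deposited percent gives each transcript's share of its gene's TPM, and shares of reads were computed from expected counts. The spike-in share of counts was 2.08% in replicate 2 and 2.82% in replicate 1.

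Names, types and coordinates were looked up by stable identifier in GENCODE M21 (GRCm38, which is mm10). Of the 39 transcripts of the factors, 36 had the same length in M21 as in the tables. Spike-ins and entries that name no mouse gene stayed out of library sizes. Rounded expected counts, with TMM library sizes from edgeR 4.0.16 under R 4.3.3, gave log2 ratios with a prior count of 2, for genes whose mean CPM reached 1. Intervals of ratios are exact 95% Clopper-Pearson intervals and cover counting error only. Floors are 3 counts. No p-values were computed, since the samples form 1 group. Differences of role groups use log2(TPM + 0.1). The ratio code was tested on simulated data. Tables used Python 3.11.15, numpy 2.4.6, pandas 2.3.3 and scipy 1.17.1, figures matplotlib 3.10.9.

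Detection means 1 TPM in both libraries. The genes named are the 10 factors with transcripts of at least 5% mean share, all relatives and cofactors, neighbours within 10 kb, and per other list the 3 highest and the lowest. A few of these genes are not reported here. Other genes named beside a count, and Mecom-204, Mecom-206, Mecom-207, Mecom-208 and Mecom-213, were chosen after their values were seen. The factors and all lists (16 lists, 147 genes, all matched) were chosen with earlier results of these data known. Alternatives were FPKM, posterior mean TPM, TPM over mouse genes, other thresholds, pseudocounts, role assignments, scalings (DESeq2 1.42.0 size factors, library size, spike-ins), prior counts and filters, and each library alone. Levels over coding transcripts or over the longest transcript, and shares of reads, were chosen after seeing the data.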

Additional observations from a re-analysis of the deposited data

How the results depend on the processing

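The set is described from 2 libraries, so the spread is poorly known, and genes near 100 counts, such as Irx1, Irx5 and Tfap2a, carry wide counting error. The median level of the factors, 5.63 TPM, was 3.64 in FPKM, ranged from 5.54 to 6.03 TPM with 1 library left out, and was 5.24 TPM over the longest transcript. In the order of levels, 6 to 8 of 10 positions were kept with 1 library left out and 5 of 10 over the longest transcript, where Lhx1 and Irx3 stood above Tfap2b. Distal minus loop, 1.30, was 0.50 over the longest transcript and 2.22 with Mecom among the distal factors, and loop minus renal vesicle, -1.77, was -2.64 with Pou3f3 among the loop factors. The cause was not tested. All 10 factors stayed detected at 0.5 TPM and at 10 counts, 8 in FPKM and 7 at 2 TPM. The same number of factors, 3, was past 1.5-fold under every scaling and prior count tried. All 10 factors pass the filter on low counts, so leaving that filter out could not change the number. By mean share of reads the leading transcript differed for Tfap2b, and within replicate 1 also for Mecom. No paired analysis was possible because the samples form 1 group.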

Other observations

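Cell types beside the nephron were measured at levels that overlap those of the factors. Endothelial genes, all 6 detected, were led by the sialomucin Emcn (82.8 ± 0.750 TPM, n = 2), the adhesion molecule Pecam1 (62.3 ± 0.771 TPM) and the receptor Tie1 (54.6 ± 0.304 TPM), with the cadherin Cdh5 the lowest at 33.005 ± 1.61 TPM. Adrenal cortex genes were led by the steroid enzymes Cyp21a1 (33.4 ± 2.78 TPM), Cyp11a1 (38.5 TPM in replicate 2 and 20.6 TPM in replicate 1) and Hsd3b1 (33.6 TPM in replicate 2 and 17.3 TPM in replicate 1), and the lowest was their regulator Nr5a1 at 3.32 TPM in replicate 2 and 1.83 TPM in replicate 1.

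Of the chromaffin genes, the catecholamine enzyme Th had 5.49 TPM in replicate 2 and 11.5 TPM in replicate 1, the granule protein Chga 4.5 TPM and 11.2 TPM, and the enzyme Dbh 2.53 TPM and 5.81 TPM, while Hand2 was the lowest at 0.375 ± 0.219 TPM. Neuronal genes were led by Stmn2 (11.7 ± 3.40 TPM), the RNA-binding protein Elavl4 (10.9 ± 2.74 TPM) and the tubulin Tubb3 (6.59 ± 3.67 TPM), with Snap25 the lowest at 1.66 ± 0.891 TPM. In the neural crest list, Erbb3 stood at 10.1 ± 0.537 TPM and Fabp7 at 5.71 ± 1.79 TPM, and the crest factor Foxd3 was the lowest at 0.055 ± 0.0212 TPM.

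Skeletal muscle actin, Acta1, had 139 TPM in replicate 2 and 48.3 TPM in replicate 1, whereas the muscle myosin light chain Mylpf had 21.2 TPM and 22.4 TPM. Myog stood at 2.42 ± 0.636 TPM and Myod1 was the lowest at 0.630 ± 0.0849 TPM. The uroplakins Upk3a (57.9 ± 6.22 TPM) and Upk1b (19.9 TPM in replicate 2 and 9.81 TPM in replicate 1) led the urothelial list, followed by Trp63 (1.14 ± 0.177 TPM), with the keratin Krt5 the lowest at 0.390 ± 0.255 TPM. Cartilage genes were led by Col2a1 (16.1 ± 0.948 TPM), Col9a1 (7.07 ± 0.177 TPM) and Matn1 (0.460 ± 0.0283 TPM), with Acan at 0.145 ± 0.00707 TPM, and the megakaryocyte list by Pf4 (30.7 ± 0.389 TPM), Itga2b (8.72 ± 0.509 TPM) and Gp9 (1.13 ± 0.467 TPM).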
